A study of Homo sapiens with 6 samples.

Results

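Vehicle-treated OVCAR5 cells were described from the 2 libraries labelled DMSO, of 6 RNA-seq libraries in the series. OVCAR5 is an established human cell line that the labels call an ovarian cancer cell from ovary. Cells of all 6 libraries were grown in high-glucose DMEM with fetal bovine serum and penicillin-streptomycin. The other 4 libraries received 10 µM SpiD7, a spirocyclic dimer: a pair of libraries for 2 h, 1 library for 6 h and 1 library for 12 h. The labels do not give how long the DMSO cells were exposed or whether the 2 DMSO libraries came from separate cultures, so spread between them may be technical or biological. Values were the authors' FPKM (fragments scaled by transcript length and by mapped fragments), with rows of 1 symbol summed. The column named for DMSO replicate 2 fell below a fixed share (0.526) of replicate 1 in 1 of 18195 rows, as a mean of 2 libraries would behave, and 0 of the 18195 rows above 0 in replicate 1 were at 0 in it. Replicate 2 was therefore recovered as the mean less that share of replicate 1, divided by the share. The same was done for the second 2 h library with a share of 0.509. Of 29982 symbols, 12915 had a mean of at least 1 FPKM over both DMSO columns, and these are the genes described. Since the second column holds replicate 1, this filter weighs replicate 1 more than replicate 2.

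A few pathways make up most of what follows. NF-κB is a family of dimeric transcription factors that inhibitors hold in the cytosol until a signal such as a cytokine frees them. Its targets include neutrophil and monocyte chemokines, adhesion molecules and the inhibitors themselves, which close a feedback loop. Immediate-early genes such as FOS and EGR1 are induced within minutes of growth factor, serum or stress signals without new protein synthesis. Several dual-specificity phosphatases, which switch MAP kinases off, are also induced by such signals. DNA replication genes are switched on by E2F at the G1/S boundary, and mitosis genes by MuvB complexes and FOXM1 in G2, so both sets are read as a measure of how many cells are cycling. In RNA from a whole culture, fewer cells of a kind and less RNA per cell cannot be told apart.

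The sequences just upstream of some of the genes on which the DMSO comparison turns are shown first, as chosen examples. Chemokine, immediate-early and mitosis genes are known for different promoter elements. They come from the RefSeq promoter table on GRCh38.p14, on the strand of the gene, as the 150 bases that end 1 base before the annotated start. In the first 5, capitals mark the NF-κB core GGNNTTTCC, and in IL8 also the AP-1 site TGANTCA at -137 to -131.
IL8 (CXCL8 in RefSeq; chr4:73740419-73740568, plus strand): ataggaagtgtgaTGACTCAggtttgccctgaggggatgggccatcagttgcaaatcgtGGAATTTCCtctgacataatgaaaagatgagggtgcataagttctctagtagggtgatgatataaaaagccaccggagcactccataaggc
CXCL1 (chr4:73869243-73869392, plus strand): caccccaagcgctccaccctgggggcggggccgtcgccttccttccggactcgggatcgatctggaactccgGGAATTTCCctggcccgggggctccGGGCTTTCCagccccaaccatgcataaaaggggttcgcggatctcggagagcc
CXCL2 (chr4:74099196-74099345, minus strand): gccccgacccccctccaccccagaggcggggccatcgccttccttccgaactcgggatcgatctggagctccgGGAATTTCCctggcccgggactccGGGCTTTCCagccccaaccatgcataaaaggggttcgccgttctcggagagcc
CXCL3 (chr4:74038690-74038839, minus strand): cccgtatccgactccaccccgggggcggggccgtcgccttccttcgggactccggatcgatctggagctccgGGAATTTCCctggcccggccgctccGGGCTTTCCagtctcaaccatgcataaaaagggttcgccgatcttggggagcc
IL6 (chr7:22727050-22727199, plus strand): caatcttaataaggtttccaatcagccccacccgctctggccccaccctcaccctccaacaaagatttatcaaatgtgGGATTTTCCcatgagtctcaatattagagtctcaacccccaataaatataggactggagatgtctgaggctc
In the next, capitals mark the CArG box, to which serum response factor binds.
EGR1 (chr5:138465329-138465478, plus strand): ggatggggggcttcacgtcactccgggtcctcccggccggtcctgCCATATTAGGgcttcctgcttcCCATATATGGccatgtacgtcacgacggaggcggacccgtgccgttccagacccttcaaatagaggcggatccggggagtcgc
In the last pair, capitals mark CCAAT, the NF-Y site, or its complement ATTGG.
CCNB1 (chr5:69167000-69167149, plus strand): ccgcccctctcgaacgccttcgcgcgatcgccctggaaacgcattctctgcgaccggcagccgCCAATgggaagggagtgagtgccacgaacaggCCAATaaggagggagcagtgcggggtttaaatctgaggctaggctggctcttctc
TOP2A (chr17:40417897-40418046, minus strand): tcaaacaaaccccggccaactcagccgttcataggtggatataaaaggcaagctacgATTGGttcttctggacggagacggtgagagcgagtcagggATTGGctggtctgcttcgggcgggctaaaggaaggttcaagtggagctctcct
The NF-κB core in IL8 lay at -91 to -83 and in IL6 at -72 to -64, and CXCL1, CXCL2 and CXCL3 each held 2 copies in nearly the same surroundings. The 3 CXCL genes are close paralogs, so reads may have been split between them. Searched on both strands over 250 bases before to 50 after the start, GGNNTTTCC was found in 9 of the 18 chemokine and cytokine promoters that matched the table (50%), against 6.26% of all 27305 promoters. The AP-1 letters, which read the same on both strands, were in 4 of these 18 against 7.76% of all. CCAAT was in 22 of 27 mitosis promoters (81.5%) against 35.7% of all, and TTTGAA, the core of the cell cycle homology region, in 16 of 27 (59.3%) against 15.4%. The CArG box was in 2 of 18 immediate-early promoters, EGR1 and SRF, against 1.29% of all. FOS and EGR2, with larger DMSO gaps (7.26 and 8.65) than EGR1 (5.88), held none in this window. Over 9884 promoters of genes past the filter, the shares were 6.73% for GGNNTTTCC and 4.53% for the AP-1 letters. They were 36.8% for CCAAT, 9.67% for TTTGAA and 1.05% for the CArG box. None of the marked motifs overlapped another. These matches describe letters in a window and are not evidence of binding.

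Apart from small RNAs and ribosomal protein genes, the baseline was led by mitochondrial RNAs, unnamed transcripts and abundant household messages. Of the 20 highest symbols, 8 carried LOC names, 6 were mitochondrial transfer or ribosomal RNAs, and 6 were protein-coding. The highest coding gene was FTL, the ferritin light chain, at 5077 FPKM in DMSO 1 and 7062 in DMSO 2, and its partner FTH1, the heavy chain, was at 2132 and 4143. The thymosin TMSB4X, which binds actin monomers, was at 2911 and 3639.9, and ACTB itself at 2116 and 3051. GAPDH of glycolysis was at 3102 and 3130.1, and the elongation factor EEF1A1 at 2298 and 2818. The 80 cytosolic ribosomal protein genes together gave 15.4% and 13.1% of all FPKM other than MIR6723, and 0 of them differed more than 2-fold between the DMSO libraries. The highest small RNA was MIR6723, which lies at chr1:632325-632413 (hg38), at 76322 and 268314 FPKM, or 9.19% and 25.04% of the whole table. A short feature with so large a share weighs on totals, so levels below are compared through genes and not through sums.

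The unstable entries among the highest were short or poorly annotated. The mitochondrial tRNA symbols TRNS1 and TRNN were listed at 0 in DMSO 1 and at 19092 and 14637 FPKM in DMSO 2. LOC101926970 was at 20926 in DMSO 1 and came out at 0 in recovered DMSO 2. TRNC and TRNY carried identical values in every library, so they cannot be told apart. In all, 78 of the 12915 genes were at 0 in only 1 DMSO library. Of these, 67 were small RNA, LOC or tRNA symbols. For them, a 0 in DMSO 2 is a recovered value, set where the remainder was under 0.2% of the mean. These 78 genes were given no fold by name, but the counts past 2-fold and 10-fold below include them.

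Epithelial markers were present in full, and ovarian markers in part. All 16 epithelial markers passed the filter. The simple-epithelial keratins KRT8 and KRT18 were at 1821 and 1742 FPKM in DMSO 1 and 1679.9 and 1541 in DMSO 2, and KRT7 and KRT19 at 304 and 179, then 215 and 154. The adhesion molecule EPCAM was at 79.6 and 82.02, and CLDN4 at 78.8 and 78.95. E-cadherin (CDH1) was at 11.4 and 19.2 and CLDN7 at 18.2 and 33.7. The splicing regulators ESRP1 and ESRP2 were at 4.72 and 7.54 and at 6.81 and 7.46, and the transcription factors GRHL2 and OVOL1 at 4.48 and 2.11 and at 5.27 and 3.52. Only CLDN3 (0.978 and 3.78), MUC1 (3.15 and 21.9) and ELF3 (7.53 and 28.9) differed more than 2-fold between the DMSO libraries, each higher in DMSO 2.

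Of 14 ovarian and Müllerian markers, 5 passed. WFDC2, which encodes the serum marker HE4, stood well above the rest at 123 and 229.9 FPKM. The Müllerian transcription factor PAX8 was at 1.73 and 1.64, mesothelin (MSLN) at 2.95 and 3.29, the folate receptor FOLR1 at 3.304 and 10.8, and KLK6 at 5.89 and 2.91. SOX17, PGR and EMX2 were listed at 0 in both libraries. WT1 (0.0316 and 0.141), ESR1 (0.0653 and 0.0438), MUC16, which encodes CA125 (0.228 and 0.686), OVGP1 (0.276 and 0.694), KLK7 (0.0409 and 0) and FOLR2 (0 in both) stayed under 1 FPKM.

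Gastrointestinal markers were mixed in the same way, with 7 of 18 past the filter. The keratin KRT20 was at 23.5 and 17.6 FPKM, the intestinal homeobox gene CDX2 at 2.79 and 2.42, and the gastric mucin MUC5AC at 1.797 and 1.63. CEACAM5 was at 1.75 and 5.401, TFF1 at 2.31 and 1.03, and LYZ at 0.961 and 1.85. CDX1, CDH17, VIL1, LGALS4, MUC2, MUC13, HNF4A, GPA33 and TFF3 lay under 0.5 FPKM in both libraries. TSPAN8 (0.315 and 1.49) and GATA6 (0.383 and 1.49) passed 1 FPKM in DMSO 2 only.

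Mesenchymal markers were mixed, with 8 of 16 past the filter, whereas immune and endothelial markers were mostly low. Vimentin (VIM) was the highest mesenchymal marker, at 579.6 and 237 FPKM. Fibronectin (FN1) was at 32.4 and 28.97 and SPARC at 25.1 and 52.01. The regulators ZEB1, SNAI1 and SNAI2 were at 7.25, 6.48 and 2.69 in DMSO 1 and 5.31, 12.95 and 3.54 in DMSO 2, and COL1A1 and LUM at 0.596 and 2.87, then 2.18 and 4.27. CDH2, TWIST1, COL1A2, DCN, PDGFRB, ZEB2 and COL3A1 were under 1 FPKM in both, and ACTA2 was at 0.226 and 2.94. Of 10 immune markers, the leukocyte antigen PTPRC was at 0.0317 and 0.0177, CD3E and MS4A1 were listed at 0 in both, and CD4, ITGAM and NKG7 were under 0.5 in both. The 3 that passed, CD68 (25.4 and 37.3), CD14 (4.08 and 4.96) and LYZ, are not limited to leukocytes. Of 6 endothelial markers only PECAM1 passed, at 0.736 and 10.7, with CDH5 at 0.0540 and 0.725 and VWF, KDR, TEK and CLDN5 under 0.5 in both.

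**Figure D1:**
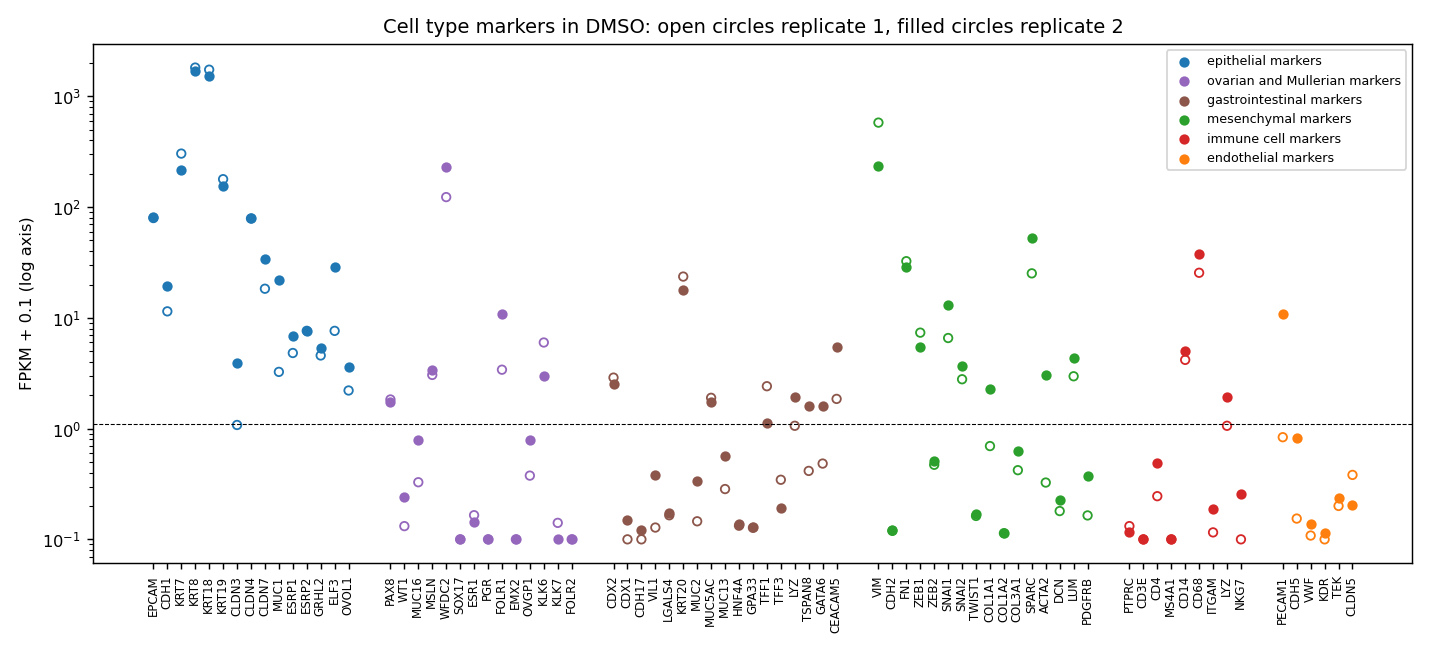
FPKM plus 0.1 (log axis) of cell type markers in DMSO replicate 1 (open circles) and recovered DMSO replicate 2 (filled circles), 1 gene per position and 1 colour per list, with the dashed line at 1 FPKM. The epithelial markers plotted sit at or near 1 FPKM or higher, whereas PTPRC, CD3E, MS4A1, SOX17, PGR and EMX2 lie at or near 0.

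Cancer drivers were expressed at moderate levels. MYC was at 105 and 279 FPKM, CTNNB1 (β-catenin) at 103 and 124, EGFR at 59.4 and 33.5, and ERBB2 at 24.1 and 29.9. CDKN2A, which encodes the CDK4 inhibitor p16, was listed at 0 in both DMSO libraries and the other 4. BRCA1 and BRCA2 were at 15.1 and 3.07 in DMSO 1 and at 8.31 and 1.79 in DMSO 2. The 16 housekeeping genes lay close in both libraries, with a median gap of 0.03 (replicate 2 minus replicate 1, log2(FPKM + 0.1)) and a range from -0.78 for HPRT1 to 0.53 for ACTB.

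Against this shared background the 2 DMSO libraries differed in many genes. Of the 12915 genes, 1043 were more than 2-fold higher in DMSO 2 (8.08%) and 632 more than 2-fold lower (4.89%), and 110 and 51 were past 10-fold. The counts past 10-fold include the 36 genes at 0 in DMSO 1 only and the 42 at 0 in DMSO 2 only. The fold of such genes rests on the pseudocount. Without genes at 0 in either library, the counts past 2-fold were 1007 and 590. The median gap over all genes was -0.07, and the quartiles were -0.42 and 0.33. With upper-quartile scaling the counts past 2-fold were 1269 and 455, and among genes with a mean of at least 10 FPKM the balance turned, with 306 higher and 385 lower. With 1 library on each side these gaps have no test. As deposited, the mean column gave 523 genes more than 2-fold higher and 0 lower, since a mean that holds replicate 1 cannot fall to less than its share. The files give no read counts, and the depth of DMSO 2 relative to DMSO 1 was estimated at 0.896 from the lowest values.

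**Figure D2:**
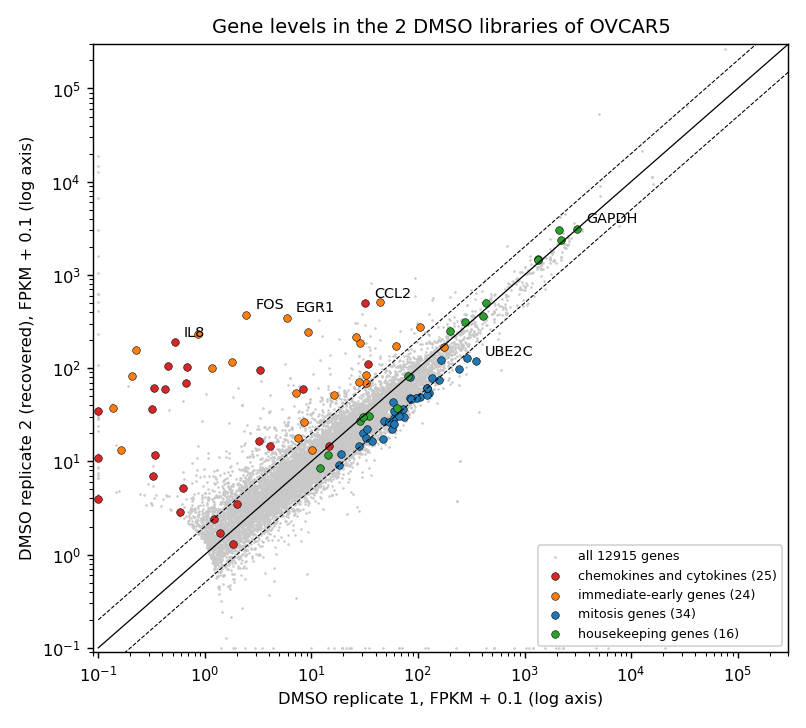
Levels of 12915 genes in DMSO replicate 1 (x) and recovered replicate 2 (y), FPKM plus 0.1 on log axes, with the solid line at equality and dashed lines at 2-fold. Housekeeping genes follow the equality line, chemokines such as IL8 and immediate-early genes such as FOS lie above it, and mitosis genes such as UBE2C lie below.

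The 2 h libraries, which share no library with DMSO, carry the same replicate numbers and gave a second, separate gap. There 752 genes were more than 2-fold higher in replicate 2 (5.82%) and 558 lower (4.32%). Of the 1043 higher in DMSO, 596 (57.1%) were also more than 2-fold higher after 2 h, which were 79.3% of those higher after 2 h. Of the 632 lower, 355 (56.2%) were also lower after 2 h, or 63.6% of those lower there. The gaps had a Pearson correlation of 0.469 across the 12915 genes, which are not independent. Genes at 0 in 1 library of a pair are among them. Their gaps rest on the pseudocount, can lie far outside the quartiles given above and weigh on this value. The correlation was not computed without them. A limma fit over the 4 libraries, with treatment as a term, tested replicate 2 against replicate 1 and called 2076 genes higher (16.1%) and 2778 lower (21.5%) at an adjusted p under 0.05, with 6947 at an unadjusted p under 0.05. With median-ratio scaling it called 2391 higher and 2130 lower. That fit has 1 residual degree of freedom and leans on the spread over all genes. With the treatment term dropped and a library left out it called 58 higher and 16 lower without DMSO replicate 1, 8 and 11 without DMSO replicate 2, 189 and 69 without the first 2 h library, and 103 and 31 without the second, each with a lone library assumed to vary like the rest. Every count of calls by list below is to be read against these shares and this dependence. A member well under 1 FPKM in DMSO 1 passed the filter only through DMSO 2, so it could not count as lower there. The inflammatory, immediate-early, MAPK feedback and growth factor lists hold such members.

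The genes with the largest gaps, among those above 0 in both libraries and at 10 FPKM or more in the higher, were inflammatory and immediate-early genes on one side and a scattered set on the other. The 10 with the largest positive gaps were FOSB, EGR2, IL8, UBD, PIGR, EGR3, NR4A1, CXCL2, IL1A and FOS. UBD, a ubiquitin-like modifier induced by TNF and interferon-γ, was at 0.0882 and 63.9 FPKM in DMSO and 0.0865 and 48.4 after 2 h, and at 0.317 after 6 h and 0.186 after 12 h. PIGR, the receptor that carries polymeric immunoglobulin across epithelia, was at 0.0347 and 41.4 in DMSO, 0.0509 and 37.2 after 2 h, 0.0934 after 6 h and 0.0728 after 12 h. Both genes were thus high in the replicate 2 libraries and near absent in the other 4. Only 3 genes other than small RNAs were under 0.5 FPKM in those 4 libraries and at 10 or more in both replicate 2 libraries: UBD, PIGR and the cytokine gene LTB. The pair chosen the other way round were LOC101928428 and LOC102724915, both at 0 in the replicate 2 libraries as recovered by subtraction. LOC101928428 carries the same values as SNORA71D in the DMSO and 2 h libraries.

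The 10 with the largest negative gaps were TIGD1, ANKRD54, BCYRN1, LOC102723721, EVA1A, LOC102724870, MYBL1, CST6, ITGBL1 and MOK. TIGD1 and ANKRD54 stood apart in DMSO 1 alone: TIGD1 was at 233 FPKM there and between 3.55 and 4.54 in the other 5 libraries, and ANKRD54 at 247 and between 9.94 and 14.5. For the rest the 2 h pair repeated the order. EVA1A, a regulator of autophagy, was at 21.5 and 2.61 in DMSO and 22.4 and 3.096 after 2 h. MYBL1, a MYB-family transcription factor, was at 24.4 and 4.404, then 26.4 and 5.97. CST6, a cystatin protease inhibitor, was at 36.2 and 7.08, then 32.98 and 15.4. BCYRN1, a noncoding RNA polymerase III transcript, was at 374 and 33.4, then 440.3 and 66.6.

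**Figure D3:**
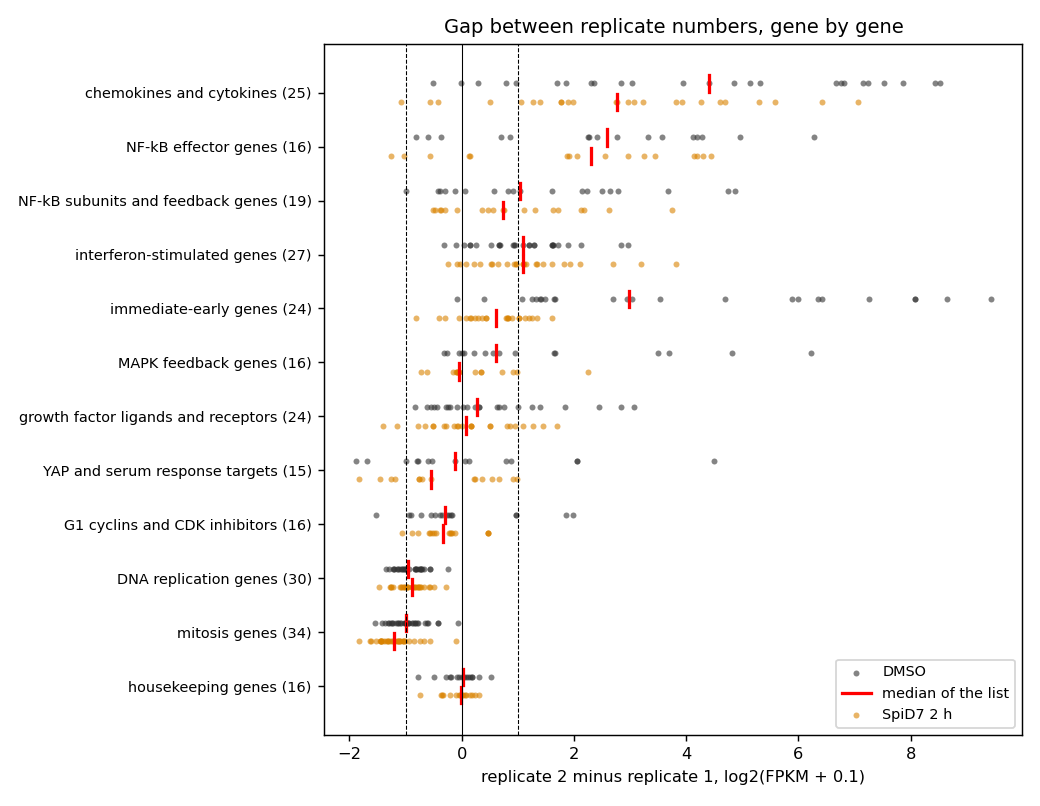
Gap between replicate 2 and replicate 1 on the log2(FPKM + 0.1) scale for each gene of 12 lists, in DMSO (grey) and after 2 h of SpiD7 (orange), with red bars at list medians, dashed lines at 2-fold and the number of genes past the filter in parentheses. Inflammatory lists lie to the right in both pairs, immediate-early genes (medians 2.99 and 0.61) mainly in DMSO, and replication and mitosis genes to the left in both.

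Many chemokines and cytokines were higher in DMSO 2. Of 30 on the list, 11 reached 1 FPKM in DMSO 1 and 27 in DMSO 2, and 25 passed the filter. Of these 25, 20 were more than 2-fold higher in DMSO 2 and 0 lower (8.08% and 4.89% of all genes), with a median gap of 4.41 against -0.07 over all genes. Some passed only through DMSO 2, so this median is partly fixed by the filter. Over the 22 above 0 in both libraries it was 3.50. At 2 h the median was 2.77, and 19 genes were past 2-fold higher in both pairs. limma called 18 higher and 0 lower of the 25, against 16.1% and 21.5% of all genes. In 20 of the 25 both replicate 2 libraries lay above all 4 others, as in 22.1% of all genes.

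IL8, the main neutrophil chemokine, was at 0.421 FPKM in DMSO 1 and 190.5 in DMSO 2, at 1.69 and 43.4 after 2 h, 2.22 after 6 h and 2.502 after 12 h. DMSO 2 was the highest of the 6 and DMSO 1 the lowest, 366-fold apart on the log2(FPKM + 0.1) scale, and limma gave 6.56 (SE 1.18, adjusted p = 0.0431). CXCL1 was at 0.578 and 102 in DMSO and 0.849 and 45.6 after 2 h (limma 6.41, SE 0.50, adjusted p = 0.0245). CXCL2, of the same chemokine family and with the same promoter elements, was at 0.348 and 105 in DMSO but 0.819 and 7.05 after 2 h, over 10-fold higher in DMSO 2 than in any other library, and did not pass (adjusted p = 0.0808 from limma). CXCL3 was at 0.219 and 35.9, then 1.001 and 16.6. CXCL5 was listed at 0 in DMSO 1, in the first 2 h library and after 6 h and 12 h, and was at 10.7 and 8.46 in the replicate 2 libraries.

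The monocyte chemokine CCL2 was the most abundant of the list, at 32.00 and 496 FPKM in DMSO, 37.2 and 251 after 2 h, 31.98 after 6 h and 41.5 after 12 h (limma 3.35, SE 0.37, adjusted p = 0.0269). CCL20, which draws dendritic and T cells through CCR6, was listed at 0 in DMSO 1 and at 34.6 in DMSO 2, with 0.213 and 12.2 after 2 h. CCL28 was at 0.226 and 6.85, then 0.294 and 7.49, and CX3CL1 at 0.529 and 5.09, then 0.652 and 2.45. In each of these the replicate 2 libraries were the higher of both pairs.

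Among cytokines, LTB, which forms membrane-bound lymphotoxin, was at 0.321 and 59.9 FPKM in DMSO and 0.295 and 52.98 after 2 h, a gap of the same size in both (7.15 and 7.07). IL1A was at 0.233 and 61.1, then 0.785 and 22.7, and IL1B at 3.19 and 95.1, then 3.67 and 52.8. IL6 was at 0.569 and 68.4 in DMSO but 1.04 and 9.51 after 2 h, and missed the threshold (adjusted p = 0.0585 from limma). TNF was listed at 0 in DMSO 1 and at 3.88 in DMSO 2, with 0.0933 and 0.557 after 2 h. The colony-stimulating factors CSF1 and CSF2 were at 34.1 and 0.237 in DMSO 1 and 111 and 11.7 in DMSO 2. LIF, also counted among the growth factors, was at 8.25 and 60.04, and IL32 at 3.13 and 16.5. TNF and LIF were not called (adjusted p = 0.0947 and 0.162 from limma). TNFSF10, the death ligand TRAIL, was at 3.98 and 14.7, and TNFSF15 at 0.480 and 2.76. IL18 (14.6 and 14.5), IL15 (1.300 and 1.62), IL11 (1.75 and 1.19), CCL26 (1.13 and 2.302) and CXCL16 (1.904 and 3.37) had DMSO gaps within 2-fold on the log2(FPKM + 0.1) scale. Of these, CCL26 and CXCL16 were past 2-fold higher after 2 h, with gaps of 1.27 and 1.06. Both were called higher (adjusted p = 0.0258 and 0.0279 from limma). CXCL6 (0.145 and 3.23), CXCL10, CCL5, IL23A and CSF3 did not pass the filter, which weighs DMSO 1 more.

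**Figure D4:**
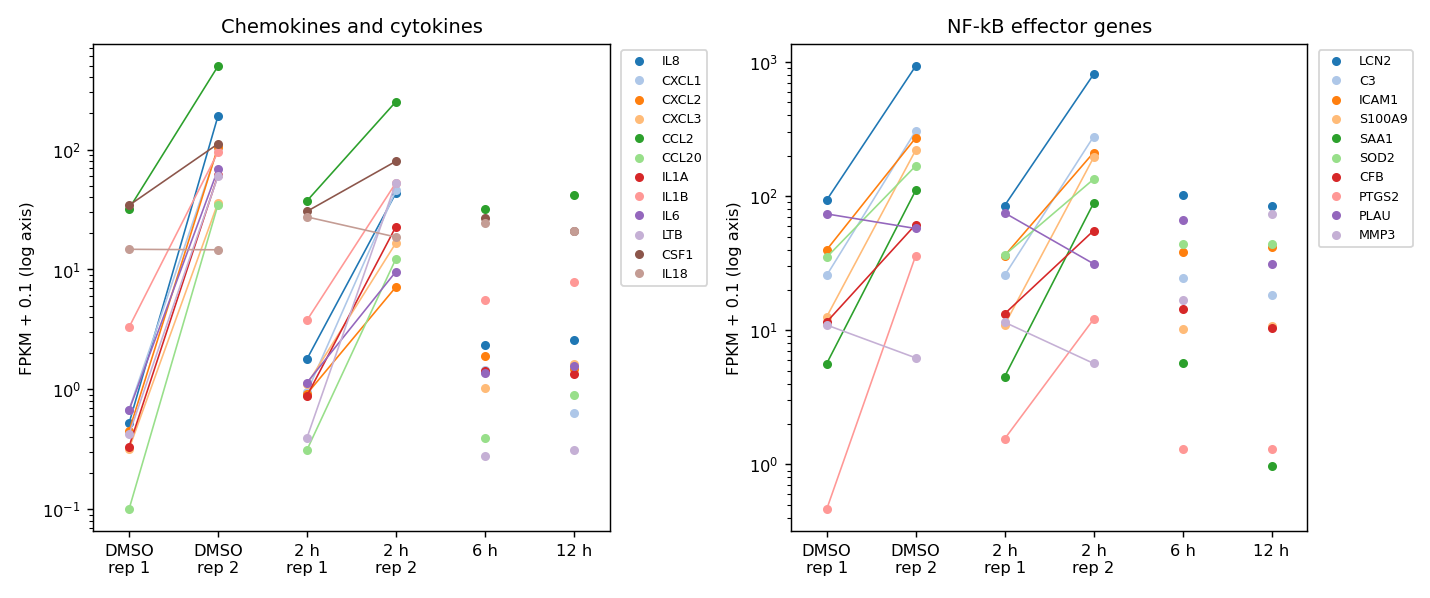
FPKM plus 0.1 (log axis) of 12 chemokine and cytokine genes (left) and 10 NF-κB effector genes (right) in the 6 libraries, 1 colour per gene, with lines joining the replicate numbers within DMSO and within 2 h. Of the genes shown, IL18, PLAU and MMP3 are not higher in replicate 2 than in replicate 1 of DMSO, and LCN2, C3, S100A9 and SAA1 repeat their DMSO gap after 2 h.

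NF-κB effector genes repeated their gap in both pairs. Of 20 genes, 16 passed, 11 of which were more than 2-fold higher in DMSO 2 and 0 lower, and all 11 were also past 2-fold after 2 h. Of the 20, 14 reached 1 FPKM in DMSO 1 and 16 in DMSO 2, so the filter partly fixes these counts. The medians were 2.59 and 2.31, and limma called 10 higher and 2 lower. LCN2, a siderophore-binding protein secreted by inflamed epithelia, was the highest, at 93.5 and 933 FPKM in DMSO, 85.1 and 811 after 2 h, 101 after 6 h and 84.3 after 12 h (limma 3.29, SE 0.07, adjusted p = 0.0245). Complement C3 was at 25.6 and 306 in DMSO and 25.6 and 278 after 2 h, and complement factor B (CFB) at 11.4 and 61.4, then 13.2 and 55.2. These secreted proteins were thus alike within each replicate number.

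The acute-phase proteins SAA1 and SAA2, which are near-identical paralogs, were at 5.55 and 2.11 FPKM in DMSO 1 and 110.2 and 40.4 in DMSO 2, and the calprotectin subunit S100A9 was at 12.5 and 220.2 (limma 4.14, SE 0.07, adjusted p = 0.0215). The adhesion molecules ICAM1 and VCAM1 were at 39.7 and 0.0556, then 272 and 4.73. SOD2, the mitochondrial superoxide dismutase, was at 34.96 and 168, and TNFAIP2 at 27.8 and 133. PTGS2, the inducible cyclooxygenase, was at 0.363 and 35.9 in DMSO and 1.45 and 12.00 after 2 h, and missed the threshold (adjusted p = 0.0558 from limma). The 2 called lower were the protease MMP3 (10.9 and 6.13, then 11.4 and 5.56) and TNFAIP8 (6.400 and 4.16, then 6.28 and 4.22). MMP9, MMP1, S100A8 and BDKRB1 did not pass the filter.

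NF-κB subunits and feedback genes differed in part. Of 19 genes past the filter of 20, 10 were more than 2-fold higher in DMSO 2 and 0 lower, with a median gap of 1.04, and limma called 10 higher and 1 lower, the kinase CHUK. The subunits NFKB2 and RELB of the alternative pathway were at 5.44 and 2.99 FPKM in DMSO 1 and 26.05 and 13.6 in DMSO 2, and REL was at 1.301 and 4.16. RELA, the p65 subunit, was at 32.7 and 30.2 in DMSO and 33.5 and 25.5 after 2 h. Inhibitors were also among those past 2-fold. NFKBIA (IκBα) was at 35.5 and 223 in DMSO but 25.5 and 42.7 after 2 h. The ubiquitin-editing TNFAIP3 (A20) was at 1.75 and 49.3, then 2.48 and 11.2, and its partner TNIP1 at 20.7 and 144, then 19.5 and 121. The coactivator-like NFKBIZ was at 6.13 and 79.1, then 31.9 and 41.1. The anti-apoptotic BIRC3 was at 0.837 and 27.3, the kinase IKBKE at 2.15 and 12.7, and NFKBIE at 4.45 and 9.27. IKBKB was at 10.1 and 8.200, CHUK at 17.2 and 13.04, and IKBKG at 17.8 and 8.97. TRAF1 did not pass the filter.

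Interferon-stimulated genes were higher in DMSO 2 by smaller amounts. Of 27 genes past the filter of 28, 14 were more than 2-fold higher and 0 lower, with medians of 1.09 in DMSO and 1.10 after 2 h, and limma called 20 higher and 0 lower. In 21 of the 27 both replicate 2 libraries lay above the other 4. BST2, the tetherin that holds virions at the membrane, was at 7.24 and 52.6 FPKM in DMSO and 5.09 and 47.4 after 2 h (limma 3.02, SE 0.13, adjusted p = 0.0245). IFI27 was at 126 and 382 and ISG15, a ubiquitin-like modifier, at 115 and 245. The 2-5A synthetases OAS1, OAS2 and OAS3 were at 7.89, 0.449 and 4.16 in DMSO 1 and 24.2, 4.201 and 13.1 in DMSO 2, with OASL at 2.93 and 13.2. The GTPase MX1 was at 9.97 and 32.8, the RNA sensor IFIH1 at 2.02 and 6.46, and STAT2 at 5.11 and 12.7. IFIT1, IFI35, IFI44 and IFI44L were the others past 2-fold, with gaps of 1.28, 1.20, 1.20 and 1.90. The antigen-presentation genes HLA-B (245 and 228), HLA-C (274 and 327) and B2M, the most abundant of the list (1344 and 1487), stayed within 2-fold. HLA genes share reads with their close copies.

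Immediate-early genes also differed widely between the DMSO libraries, and less after 2 h. All 24 passed the filter, 22 were more than 2-fold higher in DMSO 2 and 0 lower, and the median gap was 2.99, against 0.61 after 2 h, where 7 were past 2-fold. Of the 24, 19 reached 1 FPKM in DMSO 1 and 24 in DMSO 2, so some passed only through DMSO 2. The DMSO count and median are thus partly fixed by the filter. limma, which asks for the same gap in both pairs, called 1 higher (JUND, adjusted p = 0.0362) and 0 lower of the 24. DMSO 1 was the lowest of the 6 libraries for 22 of the 24 (14.7% of all genes), and DMSO 2 the highest for 17 (21.2%). Medians of log2(FPKM + 0.1) relative to DMSO 1 were 1.84 and 2.33 after 2 h, 2.20 after 6 h and 1.75 after 12 h. The list's median was thus above DMSO 1 in each of these libraries.

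FOS, a component of the AP-1 factor, was at 2.34 FPKM in DMSO 1 and 373 in DMSO 2, at 263 and 338 after 2 h, 164 after 6 h and 98.7 after 12 h. FOSB was at 0.127 and 156, then 55.7 and 142, 55.5 and 40.7. Among its partners, JUN was at 28.6 and 187 in DMSO, JUNB at 9.28 and 241, and JUND at 16.2 and 51.8. FOSL2 was at 32.3 and 68.6, whereas FOSL1, a late AP-1 member, was at 177 and 166. The zinc-finger factor EGR1 was at 5.800 and 348 in DMSO, but 328 and 247 after 2 h, 161 after 6 h and 56.9 after 12 h. EGR2, EGR3 and EGR4 were at 0.105, 0.0381 and 0.0649 in DMSO 1 and 82.7, 37.4 and 13.3 in DMSO 2. The nuclear receptor NR4A1 was at 0.758 and 232 in DMSO and 27.9 and 64.6 after 2 h.

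ATF3 was at 1.06 and 99.4 FPKM, the anti-proliferative BTG2 at 1.71 and 116, and IER3, the most abundant in DMSO 2, at 43.7 and 509. IER2 was at 26.1 and 214, the mRNA decay factor ZFP36 at 7.03 and 54.5, and the survival gene MCL1 at 62.2 and 173. KLF4, KLF6 and KLF10 had gaps of 1.25, 1.32 and 1.40, and serum response factor (SRF) of 1.65. MYC was at 105 and 279 in DMSO and, the other way round, at 225 and 184 after 2 h. IER5 (9.98 and 13.2) and FOSL1 were the pair within 2-fold. Over all genes, 5 other than small RNA, LOC and tRNA symbols were over 10-fold lower in DMSO 1 than in every other library, all of which held at least 10 FPKM. They were FOS, FOSB, ATF3, NR4A1 and ARC, a synaptic immediate-early gene, at 0.925 in DMSO 1 and between 22.7 and 141 in the others.

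**Figure D5:**
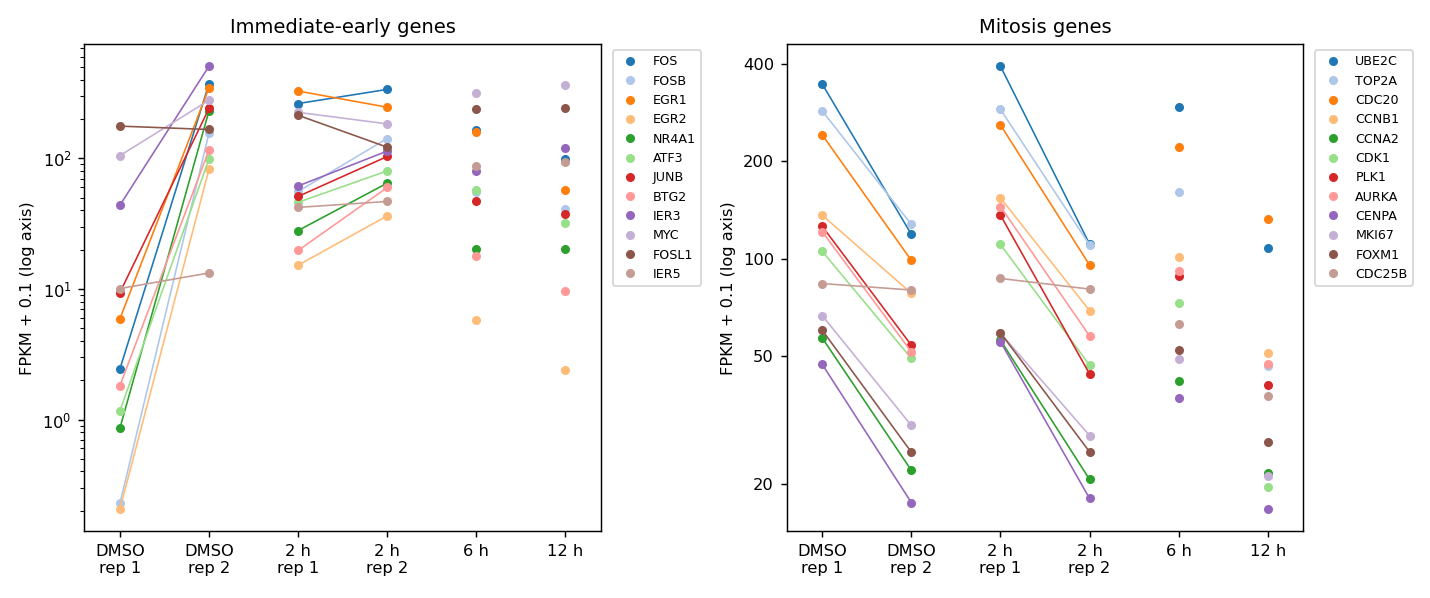
FPKM plus 0.1 (log axis) of 12 immediate-early genes (left) and 12 mitosis genes (right) in the 6 libraries, 1 colour per gene, with lines joining replicate numbers within DMSO and within 2 h. Immediate-early genes other than FOSL1 and IER5 are more than 2-fold higher in replicate 2 of DMSO with smaller or opposite gaps after 2 h, whereas the mitosis genes are lower in replicate 2 of both pairs, CDC25B least.

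Several MAP kinase phosphatases were higher in DMSO 2. Of 16 MAPK feedback genes, 6 were more than 2-fold higher in DMSO 2 and 0 lower, the medians were 0.61 in DMSO and -0.05 after 2 h, and limma called 0 in either direction, against 37.6% of all genes. Of the 16, 7 had a positive gap after 2 h. DUSP1 was at 11.6 and 332 FPKM in DMSO and 95.5 and 157 after 2 h. DUSP5, the most abundant of the list in DMSO 2 and specific for ERK in the nucleus, was at 29.8 and 384, then 80.1 and 151. The cytosolic ERK phosphatase DUSP6 was at 28.5 and 91.1, DUSP8 at 0.215 and 3.44, and DUSP2 was listed at 0 in DMSO 1 and at 7.399 in DMSO 2. The receptor tyrosine kinase inhibitor SPRY4 was at 9.85 and 31.1. DUSP10 (9.89 and 7.92), SPRY1 (12.5 and 10.4), SPRED2 (11.7 and 11.8) and the ERK-induced factors ETV4 (14.6 and 14.1) and ETV5 (16.4 and 19.1) stayed within 2-fold, as did DUSP4 (6.05 and 8.08), whose gap turned to -0.72 after 2 h.

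Growth factor ligands and receptors differed only in a few members. Of 24 past the filter of 31, 6 were more than 2-fold higher in DMSO 2 and 0 lower, with a median gap of 0.27, and limma called 7 higher and 3 lower. GDF15, a stress-induced member of the TGF-β family, was at 7.49 and 63.9 FPKM in DMSO and 15.3 and 49.6 after 2 h (limma 2.38, SE 0.42, adjusted p = 0.0424). The activin subunit INHBA was at 0.642 and 3.95, VEGFA at 5.01 and 18.1, PDGFA at 3.98 and 10.7 and EGF at 1.44 and 3.55. The EGF receptor ligands AREG (22.8 and 28.4), EREG (19.4 and 15.95) and TGFA (9.66 and 6.23) and the receptor MET, the most abundant of the list in DMSO 1 (69.5 and 58.5), stayed within 2-fold. EGFR was lower in the replicate 2 libraries of both pairs, at 59.4 and 33.5, then 54.6 and 38.2 (limma -0.67, SE 0.12, adjusted p = 0.0415), with IGF2 and TGFB2 also called lower.

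The YAP and serum response list split. Of 15 genes past the filter of 16, 3 were more than 2-fold higher in DMSO 2 and 2 lower, and the median gap of -0.12 changed sign with the column as deposited (0.01). CTGF and CYR61, rapidly induced matricellular genes, were at 36.5 and 137 FPKM in DMSO 1 and 822 and 568 in DMSO 2, and after 2 h at 222 and 458, then 438 and 587. ANKRD1 was at 27.3 and 113. The receptor tyrosine kinase AXL went the other way, at 242 and 65.7 in DMSO and 233 and 65.05 after 2 h (limma -1.86, SE 0.07, adjusted p = 0.0245). So did the actin-binding proteins TAGLN (45.2 and 13.9), FLNA (176 and 101) and TPM1 (95.2 and 55.8), all called lower. limma called 1 higher, LATS2, and 6 lower of the 15. Among the cell type markers, vimentin was lower with them (limma -1.28, SE 0.07, adjusted p = 0.0245).

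Cell-cycle genes were lower in DMSO 2 throughout S and M phase. All 30 DNA replication genes passed the filter and had a negative gap in DMSO and after 2 h, with medians of -0.96 and -0.88. In DMSO 13 were more than 2-fold lower and 0 higher, and limma called 29 lower and 0 higher, against 21.5% of all genes called lower. TK1 was the one not called (177 and 149 FPKM, adjusted p = 0.0785 from limma). In 21 of the 30 both replicate 2 libraries lay below the other 4, as in 24.7% of all genes.

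Thymidylate synthase (TYMS) had the most negative DMSO gap of the list, at 192 and 75.2 FPKM in DMSO, 177 and 73.3 after 2 h, 163 after 6 h and 90.2 after 12 h (limma -1.31, SE 0.07, adjusted p = 0.0245). The sliding clamp PCNA, the most abundant, was at 225 and 129. The ribonucleotide reductase subunits RRM1 and RRM2 were at 89.6 and 151 in DMSO 1 and 42.3 and 67.9 in DMSO 2. Of the MCM helicase, MCM3, MCM4 and MCM5 fell past 2-fold, with MCM5 at 156 and 71.4, while MCM6 and MCM7 had gaps of -0.57 and -0.57. CDC45 (41.9 and 17.1), which joins the helicase with the GINS complex, GINS1 and GINS4 (-1.05 and -1.03 as gaps), ORC6 of the origin recognition complex (48.00 and 20.6), the clamp loader subunit RFC3 (39.2 and 16.98), the polymerase subunit POLA1 (10.04 and 4.52) and UHRF1 (68.1 and 29.4) were the others past 2-fold.

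Mitosis genes were also lower in DMSO 2. All 34 passed the filter with negative gaps in both pairs, 15 were more than 2-fold lower in DMSO 2, 28 after 2 h, and all 15 in both, with medians of -0.99 and -1.20. limma called 32 lower and 0 higher. Both replicate 2 libraries lay below the other 4 in 5 of the 34, against 24.7% of all genes. UBE2C, the ubiquitin-conjugating enzyme of the anaphase-promoting complex, was the most abundant and had the most negative DMSO gap, at 347 and 119 FPKM in DMSO, 394 and 111 after 2 h, 295 after 6 h and 108 after 12 h (limma -1.69, SE 0.11, adjusted p = 0.0245). TOP2A, which untangles chromosomes, was at 287 and 128, then 290.0 and 110.3. The anaphase activator CDC20 was at 242 and 98.6, then 259 and 95.5. The first library of each pair was thus above the second by a similar factor.

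The kinases PLK1, AURKA, BUB1, BUB1B and CDK1 were at 126, 121, 73.6, 36.6 and 105 FPKM in DMSO 1 and at 53.8, 51.4, 29.7, 16.6 and 48.98 in DMSO 2. Cyclin A2 (CCNA2) was at 56.7 and 22.01, the centromere histone CENPA at 46.97 and 17.5, and the proliferation antigen MKI67 at 66.5 and 30.3. FOXM1 was at 59.95 and 25.1, TPX2 at 156 and 73.8, MAD2L1 at 96.8 and 47.9, and KIF23 at 59.1 and 28.9. Cyclin B1 (CCNB1), with 2 CCAAT boxes upstream, fell short of 2-fold at 136 and 78.03 in DMSO and passed it after 2 h with 154 and 68.9. CDC25B (83.6 and 79.8) and cyclin B2 (CCNB2, 58.1 and 43.5) were the pair limma did not call, with adjusted p-values of 0.38 and 0.0532.

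Regulators of G1 were less uniform. Of 16 past the filter of 20, 2 were more than 2-fold higher in DMSO 2 and 1 lower, with a median gap of -0.30, and limma called 0 higher and 7 lower. Cyclin D1 (CCND1) was at 112 and 57.99 FPKM in DMSO and 88.7 and 42.6 after 2 h (limma -0.999, SE 0.08, adjusted p = 0.0245). Its kinase CDK4, the most abundant of the list, was at 124 and 88.6, and CDK2 at 44.3 and 23.7. CDKN2C (p18) was the only member more than 2-fold lower, at 15.5 and 5.34. CDKN1A, the p21 inhibitor, was at 2.71 and 11.1 in DMSO, 16.7 and 23.1 after 2 h, 37.7 after 6 h and 24.1 after 12 h, and GADD45B at 23.5 and 85.3 in DMSO but 69.4 and 61.1 after 2 h. CDKN1B (p27) was at 25.2 and 17.2 and was called lower. CDKN2A and CDKN2B were listed at 0 in every library.

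Other stress and metabolic lists differed in the direction and size of their DMSO gap. Medians were 1.49 for hypoxia, 0.47 for ER chaperone, 0.47 for cholesterol synthesis, 0.16 for ATF4 stress and -0.55 for heat shock genes. Hypoxia genes were higher, with 10 of 14 past the filter more than 2-fold higher in DMSO 2, 0 lower and 11 called higher by limma. NDRG1 was at 3.98 and 34.5 FPKM, the carbonic anhydrase CA9 at 2.95 and 13.2, and the prolyl hydroxylase EGLN3 at 4.39 and 22.5. Glycolysis genes, of which SLC2A1 is also on the hypoxia list, had a median gap of 0.01, with LDHA at 778 and 816 and ALDOC alone past 2-fold (15.4 and 44.3). Of 20 ER chaperone genes, 3 were more than 2-fold higher and 11 were called higher, with HSPA5 (BiP) at 197 and 337, and 229 and 354 after 2 h.

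The ATF4 stress list divided, with 6 of 18 genes more than 2-fold higher and 3 lower. DDIT3 (CHOP) was at 13.9 and 46.3 FPKM and PPP1R15A (GADD34) at 35.7 and 139, whereas the cystine transporter SLC7A11 was at 22.1 and 7.42 and asparagine synthetase (ASNS) at 29.1 and 13.4. Of 16 heat shock genes past the filter, 0 were more than 2-fold higher and 3 lower, with HSP90AA1 at 1542 and 713 and FKBP4 at 109 and 47.1. HSPA1A was at 44.3 and 33.7, both far under its lowest SpiD7 value of 326. Of 21 cholesterol synthesis genes, 3 were more than 2-fold higher, INSIG1 (2.98 and 22.2), STARD4 (4.48 and 22.8) and IDI1 (17.95 and 47.99).

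The remaining libraries were compared gene by gene with the 2 DMSO libraries. Of the 1043 genes more than 2-fold higher in DMSO 2, 81.3% were nearer to DMSO 1 in the first 2 h library, 76.3% after 6 h and 64.7% after 12 h, but 6.81% in the second 2 h library. Of the 632 lower genes, the shares nearer to DMSO 1 were 91.8%, 87.3% and 48.9%, and 12.8% in the second 2 h library. The share over all genes was not computed. These shares thus describe only genes chosen by their DMSO gap and do not place a library in general. The 6 h and 12 h libraries carry no replicate number that pairs them with a DMSO library, and the time of SpiD7 and the library cannot be told apart there. Chemokines lay nearer to DMSO 1 than DMSO 2 did, with medians relative to it of 0.41, 0.76 and 1.02 on the log2 scale, against 4.41 in DMSO 2. CCL26 and IL11 were exceptions, at 10.9 and 41.4 FPKM after 6 h and 84.4 and 45.1 after 12 h. Mitosis genes were at 0.15, -0.34 and -1.42, against -0.99 in DMSO 2, so that after 12 h they had passed the level of the second vehicle library. MIR6723 stood at 21.8% of all FPKM in the second 2 h library and between 5.04% and 8.65% in the first 2 h, 6 h and 12 h libraries, against 25.04% and 9.19% in DMSO 2 and DMSO 1. Its part in the gaps was not tested.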

How the data were processed

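RNA was extracted with Trizol from OVCAR5 cells and made into TruSeq libraries, per the labels. The submitters' processing notes name Trim Galore, TopHat2 2.0.8, Cufflinks 2.1.1 and Cuffdiff 2.1.1. The authors deposited FPKM per gene for 4 Cuffdiff comparisons in 1 table, with hg38 coordinates; the methods name a mouse build and the notes list both. The values are FPKM and not counts, so no counting error was computed; only the relative depth of the DMSO libraries was estimated. Their fold change and test columns were not used.

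Rows of 1 symbol were summed. The second DMSO and 2 h columns were read as group means and their second library recovered, with a remainder under 0.2% of the mean set to 0. The 6 h and 12 h columns were rescaled by 0.972 and 0.994 to the first DMSO column. Genes with a mean of at least 1 FPKM over the deposited DMSO columns were kept. Gaps are differences of log2(FPKM + 0.1), which understate changes of low genes and have no test. limma 3.58.1 (R 4.3.3) tested replicate 2 against replicate 1 over 4 libraries with treatment as a term and Benjamini-Hochberg adjustment over 12915 genes. Its p-values set the mean gap against how far the DMSO gap and the 2 h gap disagree, moderated by the spread over all genes. The labels do not say that replicates were separate cultures, so these p-values do not measure spread between cultures.

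Genes named were the 20 highest other than small RNAs and ribosomal protein genes, the highest small RNA, the 10 largest gaps each way at 10 FPKM or more in the higher library and above 0 in both, list members at the extremes or past 2-fold, and the cell type markers, a few of which, with a few other genes, are not reported here. Others were named to complete a family or pathway after their values were seen. Members, lists and tests were chosen with earlier results of these data known. Alternatives varied the pseudocount, filter, scaling, column, symbol summing, limma settings and libraries.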

Additional observations from a re-analysis of the deposited data

Results flagged for a closer look

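For 4 genes of the growth and cell-cycle lists, the gap between replicate 2 and replicate 1 was past 2-fold in DMSO and of the opposite sign at 2 h of SpiD7. The zinc-finger factor EGR1 had gaps of 5.88 in DMSO and -0.41 at 2 h on the log2(FPKM + 0.1) scale. MYC had gaps of 1.41 and -0.29, KLF6 of 1.32 and -0.0428, and the growth-arrest gene GADD45B of 1.85 and -0.18. Each gap rests on 1 library a side, and the difference between DMSO and 2 h was not tested.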

How the results depend on the processing

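The 1043 genes more than 2-fold higher and 632 lower in DMSO 2 became 2787 and 1086 with no filter beyond a value above 0, 488 higher with a mean of at least 5 FPKM, and 523 and 0 with the column as deposited. Of filters chosen after seeing the data, a mean of at least 10 FPKM gave 306 and 385 over the deposited columns and 385 and 351 over the 2 libraries. A mean of at least 1 FPKM over the 2 libraries gave 1181 and 600. The YAP and serum response median of -0.12 was -0.0329 with no filter and with a mean of the 2 libraries of at least 1 FPKM, -0.0142 with upper-quartile scaling and -0.32 at either minimum of 10 FPKM, and it reversed to 0.0125 with the column as deposited, where the G1 median was -0.0707. The column as deposited holds replicate 1, which shrinks falls by construction. For the rest, the cause was not tested. limma called 8 to 189 genes higher and 11 to 69 lower when 1 library was left out, against 2076 and 2778 with all 4, while dropping the treatment term alone gave 1663 and 2265. Over 16 counts and list medians, 1 of 190 alternative values reversed and 23 moved past a set limit. A count could only stay or move, so only medians could reverse. With a pseudocount of 1 the chemokine median was 2.72 and the immediate-early median 2.89, which turns their order, and with the column as deposited the replication and mitosis medians were -0.33 and -0.34. Of 3171 values for 256 single genes, 72 moved and 0 past 2-fold reversed. No paired analysis was possible because the replicate number itself is the factor compared, within treatment. FPKM without counts sets no floor for genes listed at 0.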
